A study of Mus musculus with 56 samples.

Results

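*Ifitm3*, a membrane protein gene of the interferon response, was followed with 8 other interferon-response genes in single cells (SCs) of a mouse pituitary culture. The 9 genes were chosen by function with the CPM levels of these cells known, and were found by their symbols among the 47069 gene rows of the count table. All 9 were detected. *Ifitm3* itself was selected on its high mean share of counts in these same cells, so its level is a description and was not tested. The questions were whether cells with high *Ifitm3* also carried the other members, and how *Ifitm3* stood to the leading hormone, the depth and the spike-in share of a cell.

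The study profiled 56 SCs by RNA-seq on a Fluidigm C1 circuit, in which each cell is lysed in a chamber of its own, with SMART-Seq v4 amplification and Nextera libraries. The cells came from pituitaries of female C57BL/6 mice, 10 to 12 weeks old and randomly cycling, and 5 pituitaries were pooled for a sample. The dispersed cells were kept for 4 days in culture without treatment, detached with trypsin and preserved with RNA-Best, a solution that keeps the RNA of intact cells. A filter and a capture chip for small cells set which cells could be taken. The labels name no interferon or other agent for these cells, so no treatment is compared here. Since the labels name no separate cultures, all 56 cells count as 1 sample. Every value below describes these cells, has no replicate check and carries no p-value.

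Counts assigned to genes ranged from 357 to 12563266 per cell with a median of 711525, and 25 cells had at least 1000000. ERCC spike-ins, synthetic RNAs added to each chamber, took 0.144% to 74.9% of counts (median 7.95%). Wells B6 and H10 had only 357 and 1687 gene counts. Wells C10 and C11 were the most alike of the 1540 pairs (Pearson's r of log2(CPM + 1) over 6667 genes 0.95, against a median of 0.38), and both were kept. CPM is the count of a gene scaled to 1000000 gene counts in its cell, without spike-ins, and a gene was called detected at 1 CPM.

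Interferons bind receptors at the cell surface, and kinases bound to them, such as Jak1 and Tyk2, then activate transcription factors that bind a short DNA element in the promoters of their target genes. The targets include proteins that block virus entry, bind viral RNA, tag other proteins or feed peptides to class I antigen presentation. Ifitm3 sits in endosomal membranes and hinders fusion of virus and cell, and it is also made in many cell types without interferon. In the pituitary the hormone-producing cells are known above all for single secreted hormones, such as prolactin (*Prl*), growth hormone (*Gh*) and the peptides of *Pomc*.

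The promoters of the members were read from RefSeq (GRCm38.p6) over 250 bases before and 50 bases after each gene start, and all 9 had an entry. The core of the interferon-stimulated response element, GAAA repeated after any 2 bases (GAAA, NN, GAAA), was searched on both strands. It was found in 7 of the 9, against 3.44% of all 32851 promoters, and at least 2 copies stood in 5 of the 9, against 0.225%. These windows are shown because they are the sequence feature that *Ifitm3* shares with the members it is compared with. Each is written 5′ to 3′ on the strand of the gene, and the capitals mark the motif or its reverse complement, with copies that overlap run together.
*Ifitm3*, chr7:141010715-141010743, minus strand: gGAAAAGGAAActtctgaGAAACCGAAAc
*Ifitm2*, chr7:140955988-140956017, minus strand: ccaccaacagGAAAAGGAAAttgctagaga
*Bst2*, chr8:71537577-71537612, minus strand: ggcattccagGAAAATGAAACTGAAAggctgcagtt
*Isg15*, chr4:156200865-156200906, minus strand: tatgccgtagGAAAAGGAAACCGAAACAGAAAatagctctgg
*Ifit1*, chr19:34640775-34640823, plus strand: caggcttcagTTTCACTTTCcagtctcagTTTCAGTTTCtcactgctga
*Ifit3*, chr19:34583363-34583426, plus strand: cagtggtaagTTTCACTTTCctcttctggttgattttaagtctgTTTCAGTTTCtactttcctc
*B2m*, chr2:122147538-122147567, plus strand: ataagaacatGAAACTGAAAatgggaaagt

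The pair of copies in *Ifitm3* lay 2 to 28 bases after the RefSeq start, while those of the other 6 genes lay before it, from position -156 in *Ifit3* to -37 in *Ifitm2*. *Isg15* held 3 overlapping copies. *Ifitm1* and *Irf7* held none in this window. A second motif, TTCNNNGAA, a palindromic element of cytokine-responsive promoters, was present in *Ifitm3* and *Bst2* among the 9, and in 8.3% of all promoters. A match is a description of letters and does not show that a factor was bound.

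*Ifitm3* (chr7:141009586-141010770, minus strand, GRCm38) was detected in 55 of 56 cells, which is 98.2% with an exact Clopper-Pearson 95% interval of 90.5% to 99.95% that covers counting error only. The remaining well, B6, had 0 of 357 gene counts. At that depth 3 counts are worth 8408 CPM, and the exact interval reaches 10280 CPM. The level ran from 0 to 26379 CPM with a median of 1316, and 31 cells were at 1000 CPM or more. The highest cells were A6 with 26379, H4 with 21939 and A2 with 18708 CPM, followed by A9, A10, E7, A1, C7, F6 and H7 down to 6248 CPM. The next well, F4, had 6014 CPM, so the 10 do not form a group of their own.

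At the low end of *Ifitm3*, 4 deep wells stood apart. C1 had 3.07 CPM (interval 1.90 to 4.69), B12 had 6.46, G1 had 7.74 and B2 had 10.9 CPM. Each of these 4 wells had at least 5298575 gene counts, so that 3 counts were worth under 1 CPM and the levels lay above that floor. The next well up was C2 with 85.5 CPM. Among the 25 cells with 1000000 counts or more, *Ifitm3* therefore ran from 3.07 to 21939 CPM, with a median of 2678.

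**Figure D1:**
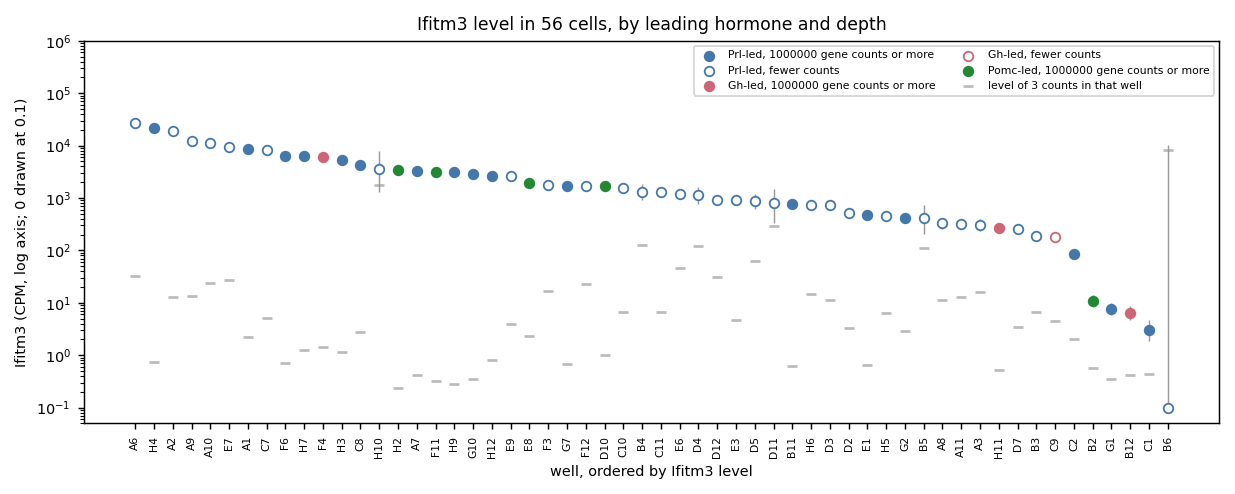
*Ifitm3* level (CPM, log axis, 0 drawn at 0.1) in each of the 56 wells in falling order. Colours give the leading hormone, filled points have 1000000 gene counts or more, vertical bars are exact 95% counting intervals and grey dashes mark the level of 3 counts in that well. The series falls steadily from 26379 CPM to C2 at 85.5 and then breaks to 4 deep wells at 3.07 to 10.9 CPM, and B6 at 0 has a bar up to 10280.

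Its nearest relatives were much lower. *Ifitm2*, a second antiviral membrane protein of the family, was detected in 48 cells and ran from 0 to 2322 CPM (H4) with a median of 33.5. *Ifitm1*, the third, was detected in 34 cells and ran from 0 to 47.6 CPM (H4) with a median of 2.05. Per length of annotated exons, the median levels were 3241 TPM for *Ifitm3*, 74.8 for *Ifitm2* and 3.18 for *Ifitm1*. *Ifitm5* and *Ifitm6* had no count in any cell, and *Ifitm10* reached 1 CPM in none.

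The family shares sequence, so reads can be divided among its members and copies. Of the 50-base words in annotated *Ifitm3* transcripts, 10.0% occur in another gene, and the shares were 48.5% for *Ifitm2* and 5.02% for *Ifitm1*. In the 26 cells with at least 1000 *Ifitm3* counts, *Ifitm1* counts were 0% to 0.333% of *Ifitm3* counts, with a median of 0.183%. *Gm7676* and *Gm11951*, processed pseudogenes that share words with *Ifitm3*, stood at similar small fractions, with summed counts of 1.17% and 0.421% of those of *Ifitm3*, and *Ifitm7* at 0.113%. *Ifitm1*, *Gm7676* and *Gm11951* tracked *Ifitm3* with Spearman's rho of 0.97, 0.97 and 0.92 over the 25 cells with 1000000 counts or more. Their ratios were not fixed, since *Gm7676* counts were 0.338% to 2.12% and *Gm11951* counts 0.120% to 0.849% of *Ifitm3* counts in the 26 cells. *Ifitm2* varied more widely, and in the same 26 cells its counts were 0.144% (B11) to 32.8% (F11) of those of *Ifitm3*, with a median of 0.915%.

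Of the induced antiviral genes, *Bst2*, whose product tethers budding virus to the cell, was detected in 53 cells and ran from 0 to 16760 CPM (C7) with a median of 197. *Isg15*, a ubiquitin-like tag, was detected in 49 cells and ran from 0 to 15911 CPM (A3) with a median of 74.4. Both were held up by few cells: C7 alone gave 40.6% of summed *Bst2* CPM and A3 gave 52.4% of that of *Isg15*. *Ifit1*, which binds viral RNA, was detected in 49 cells and ran from 0 to 2495 CPM (H4) with a median of 39.6. *Ifit3*, its partner, was detected in 54 cells and ran from 0 to 18507 CPM (A8) with a median of 152. *Ifit3* shares 51.2% of its 50-base words with *Ifit3b*, which peaked in the same well at 5418 CPM, so reads of the pair can be divided between them.

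*Irf7*, the transcription factor that amplifies interferon production, was detected in 50 cells and ran from 0 to 5116 CPM (H4) with a median of 97.9. *B2m*, the light chain of class I molecules, was detected in 55 cells and ran from 0 to 18614 CPM (A2) with a median of 355. Genes overlap *Irf7* (*Phrf1*) and *B2m* (*Patl2*) on the other strand, and the strand setting of the counting is not given in the sources used here. The second level of *B2m* was 8973 CPM in C11, against 352 in C10, the well most like it over the 6667 genes. Such single high wells differed from gene to gene, and only H4 was among the 4 highest of all 8 members other than *Ifitm3*.

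Of the 56 cells, 29 had all 9 members at 1 CPM or more and 18 had 8. All 5 induced genes (*Bst2*, *Isg15*, *Ifit1*, *Ifit3* and *Irf7*) were detected in 45 cells. In median TPM the order of the members was *Ifitm3* with 3241, *B2m* with 717, *Bst2* with 355, *Isg15* with 144, *Ifit3* with 131, *Ifitm2* with 74.8, *Irf7* with 42.4, *Ifit1* with 21.5 and *Ifitm1* with 3.18. The cells of all neighbours in that order overlapped widely, since each member ran from 0 up to well above the median of the next.

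**Figure D2:**
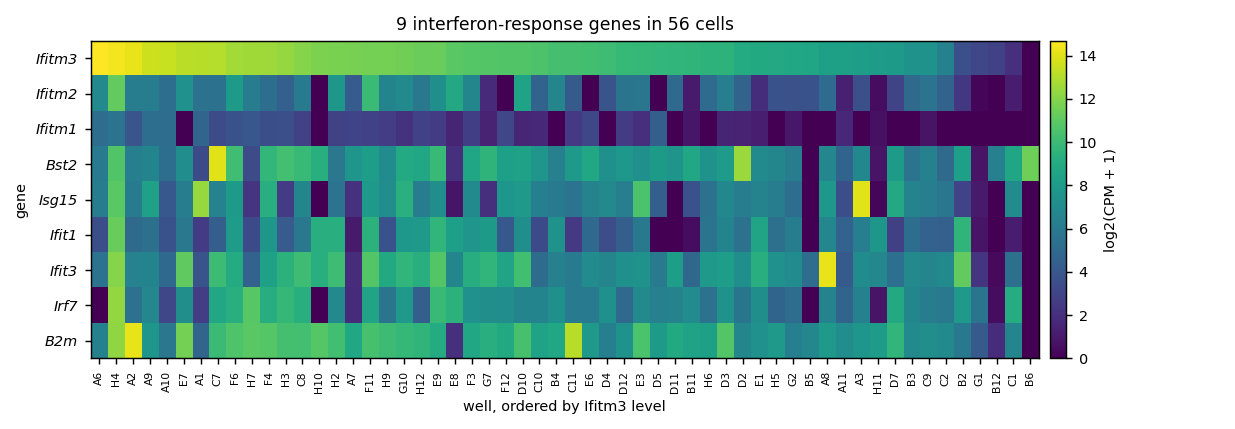
Level of the 9 members (rows, log2(CPM + 1) as colour) in the 56 wells (columns), ordered by *Ifitm3* from high on the left to low on the right. *Ifitm1* and *Ifitm2* fade along the same order, H4 is above the median of every gene, and several wells of plate row A at the left end are bright for *Ifitm3* and dark for *Ifit1* and *Irf7*.

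Whether high *Ifitm3* came with the other members was measured as Spearman's rho of CPM across cells. The points share the culture, the chip and the plate, and CPM ties the genes of a cell to 1 total. A value of 0.3 or more was used as a mark, and 82 of the 6666 genes tested, 1.23%, reached it with *Ifitm3*, with a median of -0.04 (a gene was tested with a mean of at least 10 CPM and detection in at least 14 cells). Over all 56 cells, 3 of the 8 other members were at or above the mark. They were *Ifitm1* with 0.78, *Ifitm2* with 0.61 and *B2m* with 0.54. *Ifitm1* itself was too low to enter the genes tested. Counts of *Ifitm1* and *Ifitm2* were fractional in 27 and 44 cells, and the part of reads shared with *Ifitm3* in their values was not tested. By rho the 5 induced genes were below the mark, at 0.28 for *Ifit3*, 0.25 for *Isg15*, 0.24 for *Ifit1* and *Irf7*, and 0.20 for *Bst2*. Weak values like these in sparse counts are not read as a relation, although each was above the rho of at least 94.8% of the genes tested. The measure mattered here. Pearson's r of log2(CPM + 1) was 0.41 for *Ifit3*, 0.35 for *Ifit1* and 0.34 for *Isg15*, above the mark. It was 0.24 for *Irf7* and 0.13 for *Bst2*, and 2.42% of genes tested reached 0.3 by that measure.

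Over all cells the induced genes had higher rho with one another than with *Ifitm3*, but their backgrounds were also higher. The median rho over all genes tested was 0.08 (*Isg15*) to 0.14 (*Irf7*) for the 5 genes and -0.04 for *Ifitm3*. The correlation within the 10 pairs of induced genes had a median of 0.40 (0.23 to 0.75, the highest for *Ifit1* with *Ifit3*). With *Ifitm3* the median was 0.24 (0.20 to 0.28). This order did not hold in every set of cells described next: without plate row A the medians were 0.36 within the pairs and 0.43 with *Ifitm3*, and in plate columns 4 to 6 and 10 to 12 they were 0.51 and 0.55. Of the 28 cells with *Ifitm3* above its median, 9 had all 5 induced genes above theirs and 2 had none. Of the other 28 cells, 1 had all 5 and 5 had none.

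Single wells showed high *Ifitm3* both with and without the induced genes. The following wells other than the highest and lowest were picked after their values were seen. H4, at 21939 CPM of *Ifitm3*, had 1921 CPM of *Isg15*, 2495 of *Ifit1*, 4093 of *Ifit3* and 5116 of *Irf7*, and exceeded the median of every member. A6, the highest of all, had 74.8 CPM of *Isg15*, 10.7 of *Ifit1*, 48.1 of *Ifit3* and 0 of *Irf7*, though 3 counts there were worth 32.1 CPM. A7 is not limited by depth: with 7294071 gene counts it had 3331 CPM of *Ifitm3*, 3.29 of *Isg15*, 1.10 of *Ifit1*, 2.61 of *Ifit3* and 2.47 of *Irf7*. A1 had 8788 CPM of *Ifitm3* and 5512 of *Isg15*, but 4.87 of *Ifit1*, 13.0 of *Ifit3* and 26.2 of *B2m*. The reverse also occurred, in B2, where *Ifitm3* was 10.9 CPM while *Ifit1* was 786 and *Ifit3* 2312. In C1, with *Ifitm3* at 3.07, *Irf7* was 555 and *Bst2* 400 CPM.

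Plate row A held several wells with high *Ifitm3* and low levels of most induced genes, a pattern noticed after the values were seen. The 9 wells of row A had a median *Ifitm3* of 8788 CPM (302 to 26379), and 5 of them were among the 10 highest, whereas the medians of rows B to H lay between 189 and 3240 CPM. In row A the medians were 25.5 CPM for *Irf7*, 23.4 for *Ifit1*, 48.1 for *Ifit3* and 78.4 for *Bst2*, each below the median of all cells. *Isg15* was not lower, with a median of 74.8, and its 2 highest wells (A3 and A1) and the highest of *Ifit3* (A8) were in row A. The spike-in share in row A had a median of 58.0%. Without row A, over 47 cells, rho with *Ifitm3* was 0.77 for *B2m*, 0.61 for *Ifit3*, 0.51 for *Irf7*, 0.43 for *Ifit1*, 0.41 for *Bst2* and 0.33 for *Isg15*, so that all 8 other members passed the mark, against 6.71% of genes tested in those cells. With the mean log2(CPM + 1) of the 5 induced genes, rho was 0.28 over all cells and 0.56 without row A, and it lay between 0.18 and 0.29 when any other row was left out. Row A was singled out for high *Ifitm3* with low induced genes, so higher values without it follow in part from that choice. They are a description and no independent support. *Ifitm2* hardly moved, at 0.60. The spike-in share was high in most wells of row A, up to 74.9% in A6, but it was 17.1% in A1 and 0.532% in A7. Outside row A, B4 and B5 had 70.35% and 68.9%, with *Ifitm3* at 1324 and 420 CPM. The part of the spike-in share in the result was not tested.

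The values also differed between sets of plate columns. In columns 1 to 3 and 7 to 9 (29 cells) rho of *Ifitm3* was 0.00 with *Isg15*, -0.03 with *Ifit1*, 0.09 with *Ifit3*, 0.08 with *Irf7* and 0.09 with *Bst2*, and 3.02% of genes tested passed the mark. In columns 4 to 6 and 10 to 12 (27 cells) the same values were 0.65, 0.55, 0.55, 0.43 and 0.39, with 6.06% of genes tested. *B2m* (0.57 and 0.53), *Ifitm2* (0.61 and 0.63) and *Ifitm1* (0.84 and 0.69) passed the mark in both sets. Split by depth the sets were further apart: *B2m* was at 0.55 and 0.92 in cells of 1000000 counts or more and at 0.58 and 0.26 in the others, where *Ifitm2* was at 0.66 and 0.31. The sets differ in depth, with median gene counts of 1050009 and 234987, and row A gave 6 of its 9 wells to the first. Without row A, rho with the mean of the 5 induced genes was 0.38 in the first set and 0.83 in the second, with 9.29% and 16.1% of genes tested at the mark, and *Isg15* was at -0.03 and 0.74. The difference between the sets was not tested.

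The values were also taken in deep cells alone. In the 25 cells with 1000000 counts or more, rho with *Ifitm3* was 0.71 for *B2m*, 0.67 for *Ifitm2*, 0.51 for *Isg15*, 0.46 for *Irf7*, 0.39 for *Bst2*, 0.25 for *Ifit3* and 0.23 for *Ifit1*, beside 6.29% of genes tested at the mark. Of these cells, the 10 in columns 4 to 6 and 10 to 12 gave 0.66 (*Ifit3*) to 0.95 (*Irf7*) for the 5 induced genes, with 15% of genes tested at the mark. The 15 in columns 1 to 3 and 7 to 9 gave -0.07 to 0.14, with 9.88%. H4 and B12 are the extremes of the 10; without them, over 8 cells, rho was 0.33 for *Ifit3*, 0.57 for *Ifit1* and 0.74 to 0.90 for the other 3, with 26.4% of genes tested at the mark. Over all 25 deep cells, leaving out the same 2 wells took rho with the mean of the 5 from 0.42 to 0.26, *Ifit1* to 0.02 and *Ifit3* to 0.05, with 7.36% of genes tested at the mark. H4 alone did not carry the values over all cells, since without it the 5 induced genes stood at 0.16 to 0.25.

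**Figure D3:**
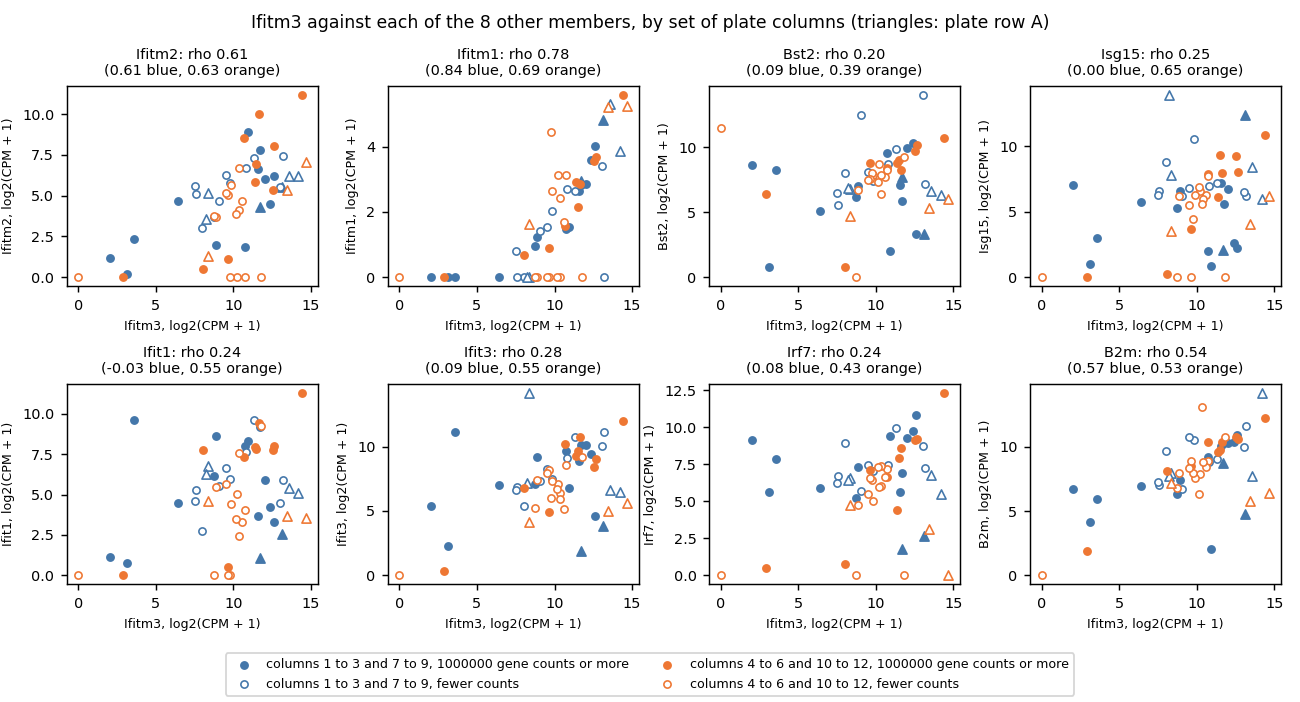
Each of the 8 other members (y axis, log2(CPM + 1)) against *Ifitm3* (x axis, same scale) in 56 cells. Colours give the set of plate columns, filled points have 1000000 gene counts or more, triangles are plate row A, and Spearman's rho is printed for all cells and for each set. *Ifitm1*, *Ifitm2* and *B2m* rise along *Ifitm3* in both sets, and *Isg15*, *Ifit1* and *Ifit3* do so in columns 4 to 6 and 10 to 12.

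Other genes of the pathway were taken from lists by role. Of the ligands, 14 interferon genes were looked for and none reached 1 CPM in more than 1 cell. *Ifna1* and *Ifna6*, both type I genes, each had 0.33 of a count in D3, a divided read. Receptors were sparse: *Ifnar2*, a chain of the type I receptor, was detected in 36 cells and *Ifnar1*, the other chain, in 12. *Ifngr1* and *Ifngr2*, the chains of the type II receptor, peaked in H4 at 533 and 442 CPM, and *Il10rb*, a shared chain of the type III receptor, was detected in 11 cells.

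Signalling genes mostly stayed below the mark with *Ifitm3*, which 1.23% of all genes tested reached. Of 12 in the list, 6 were detected in at least 28 cells, 8 were tested and 1 passed the mark, the kinase gene *Jak1* with rho 0.31 (median 13.4 CPM, 46 cells). *Usp18*, a brake on the pathway that removes Isg15, was detected in 50 cells (median 51.3 CPM) with rho 0.19, and *Irf9*, a DNA-binding factor of the pathway, in 49 (61.2 CPM) with 0.05. *Stat2*, a transcription factor gene of the pathway, gave -0.06. Among the sensors of viral nucleic acid, 4 were tested and none passed, with *Ifih1* at 0.17, *Zbp1* and *Dhx58* at 0.13 and *Ddx58* at -0.07.

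Of the 34 effectors 28 were tested and none passed the mark, which 1.23% of all genes tested passed. *Oas1a* came nearest, just below the mark with a rho that rounds to 0.30, followed by *Ifit3b* with 0.28. The 4 highest in mean CPM were *Ifi27*, a mitochondrial protein gene (55 cells, median 695 CPM, rho 0.19), *Ly6e*, a membrane-anchored protein gene (55 cells, 355 CPM, 0.24), *Irgm1*, a GTPase gene (41 cells, 21.8 CPM, 0.03), and *Ifi35* (42 cells, 25.8 CPM, 0.06). *Ifi47*, a GTPase gene detected in 4 cells, had rho 0.31 but was too sparse to be tested. *Mx1*, a classical antiviral GTPase gene, was detected in only 17 cells, with rho -0.11, and *Rsad2*, the viperin gene, in 46, with 0.08. Of 13 antigen presentation genes 11 were tested and none passed; the 4 highest were the class I heavy chain gene *H2-D1* (rho 0.09), *Psme2* (-0.04) and *Psmb8* (0.23) of the antigen-processing proteasome, and *Tapbp* (0.19), which helps to load peptides.

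In all, 1 of the 52 pathway genes tested, 1.92%, reached rho of 0.3 with *Ifitm3*, close to the 1.23% of all genes tested. The median rho of the pathway genes with *Ifitm3* was nonetheless higher, at 0.10 against -0.04 over all genes tested. With *Ifit1* these medians were 0.34 and 0.10. The other members had higher shares against their own backgrounds. For *Ifit1* the share was 57.7% against 13.5%, for *Ifit3* 55.8% against 12.1%, and for *Irf7* 48.1% against 14.4%. *Isg15* stood at 36.5% against 6.05%, *B2m* at 34.6% against 6.24%, and *Bst2* and *Ifitm2* at 25.0% against 6.02% and 3.96%. *Ifitm1*, like *Ifitm3*, had 1.92% against 1.69%. Without row A, left out after the values were seen, 14 of 53 pathway genes passed with *Ifitm3*, 26.4% against 6.71%. These were 8 of 28 effectors, 2 of 8 signalling genes, 2 of 11 antigen presentation genes, 1 of 4 sensors and 1 of 2 receptors, led by *Ifit3b* with 0.54, *Ly6e* with 0.47, *Usp18* with 0.42, *Oas1a* with 0.41 and *Xaf1* with 0.40. In the same cells *Ifit1* had 58.5% against 13.4% and *Isg15* 56.6% against 11.2%, while *B2m* with 20.8% against 4.9% and *Bst2* with 17% against 2.04% had fewer pathway genes than *Ifitm3*.

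**Figure D4:**
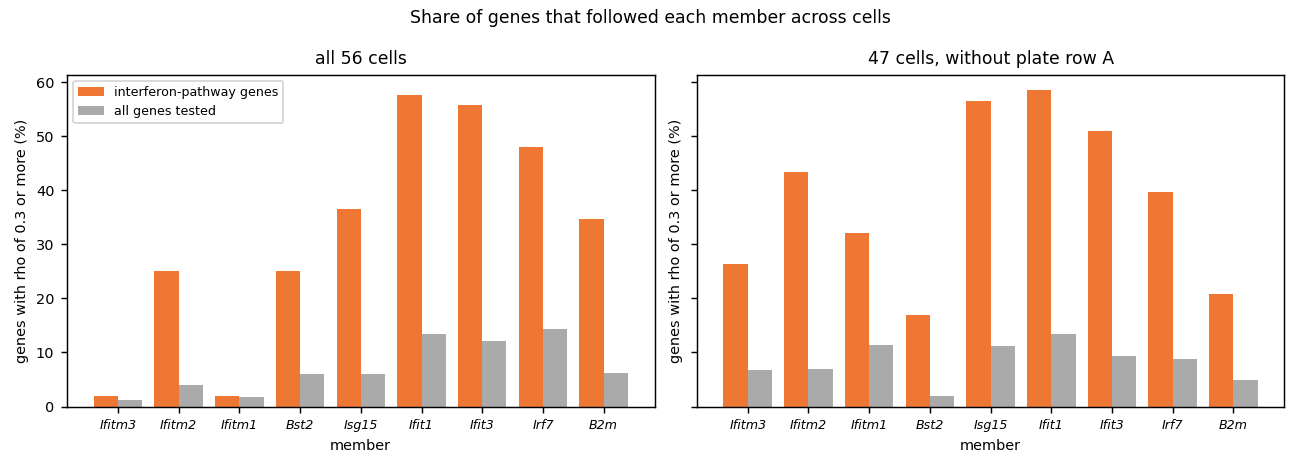
Percentage of genes with Spearman's rho of 0.3 or more with each member (x axis), for interferon-pathway genes (orange) and for all genes tested (grey), in all 56 cells (left) and in 47 cells without plate row A (right). Row A was left out after the values were seen. *Ifitm3* stands at 1.92% against 1.23% on the left and at 26.4% against 6.71% on the right, while *Ifit1* is at 57.7% and 58.5%.

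Beside members, the genes most like *Ifitm3* over the 56 cells were mostly pseudogenes. The 10 highest in rho were *Gm7676* with 0.85, *Gm11951* with 0.79, *Ifitm2*, *B2m*, *Gm5786* with 0.52, *Rps2-ps6* with 0.48, *Gm5921* with 0.46, *Tomm7* with 0.43, and *Gm10076* and *Gm7618* with 0.42. Of these, 6 are annotated as processed pseudogenes and 1 as a long noncoding RNA, and all 7 had fractional counts in at least 36 cells, that is, reads divided among copies. *Tomm7* codes for a subunit of the mitochondrial import complex. The 5 lowest were *Clba1* with -0.46, *Uhrf1bp1l* and *Zyg11b* with -0.45, *Yif1a* with -0.42 and *Ndel1* with -0.40.

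The leading hormone, the lineage hormone with the highest CPM in a cell, was *Prl* in 47 cells, *Gh* in 4 and *Pomc* in 5. A lead did not mean a high level. F4, B12 and H11 were led by *Gh* at 5384, 10514 and 12350 CPM, beside a median of 11494 over all cells. Their *Prl* was 2069 to 2286 CPM. In C9, the other *Gh*-led well, *Gh* was 307675 CPM. Median *Ifitm3* was 1308 CPM in *Prl*-led cells (0 to 26379), 224 in *Gh*-led cells (6.46 to 6014) and 1942 in *Pomc*-led cells (10.9 to 3395). The ranges of the *Gh*-led and *Pomc*-led cells lay inside that of the *Prl*-led cells, and each kind held a deep well at 10.9 CPM or less. Depth differed between the kinds, with median gene counts of 453587 in *Prl*-led and 5298575 in *Pomc*-led cells. In deep cells alone, median *Ifitm3* was 2860 CPM in 17 *Prl*-led, 264 in 3 *Gh*-led and 1942 in 5 *Pomc*-led cells. The order of *Prl*-led and *Pomc*-led cells was thus reversed there. Over all cells, the level of *Ifitm3* gave rho of 0.03 with *Prl*, -0.00 with *Gh* and 0.01 with *Pomc*. It was 0.22 with *Cga*, the shared subunit of the glycoprotein hormones, and 0.27 with *Lhb*, the subunit of luteinizing hormone.

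*Pomc*-led cells differed from most *Prl*-led cells in *Ifit1* and in *Ifitm2* relative to *Ifitm3*, a comparison chosen after the values were seen. All 5 *Pomc*-led cells had over 1000000 counts, so they are set beside the 17 *Prl*-led cells of that depth. *Ifit1* ran from 157 to 786 CPM (median 586) in the *Pomc*-led cells and from 0.423 to 2495 (median 21.4) in the *Prl*-led cells. *Ifitm2* counts were 6.48% to 38.3% of *Ifitm3* counts (median 24.4%) in the first and 0.144% to 42.1% (median 2.01%) in the second. Both ranges overlap, with C1, C2 and H4 the *Prl*-led wells above 10% for *Ifitm2*, of which C1 had 21 counts of *Ifitm3*. The *Pomc*-led well at 38.3%, B2, had 57.5 counts of *Ifitm3*. The level of *Ifitm2* ran from 4.15 (B2) to 1038 CPM (median 372) in the *Pomc*-led cells. In the *Prl*-led cells it ran from 0.155 to 2322 CPM (median 24.9). In the *Gh*-led cells the 4 levels of *Ifit1* ran from 0 to 217 CPM, and *Ifitm2* counts were 0% (B12) to 26.1% (C9) of *Ifitm3* counts.

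Depth and spike-in share had weak correlations with *Ifitm3* over all cells. Spearman's correlation with gene counts was -0.01 and with the number of genes detected -0.08. The correlation with the spike-in share was 0.05 over all cells. Taken within each set it was 0.31 in columns 1 to 3 and 7 to 9 and -0.11 in columns 4 to 6 and 10 to 12. In the 25 deep cells the values were -0.25 with gene counts and 0.30 with the spike-in share. Leaving out the wells with the most extreme depth, B6 and H10, turned Pearson's r with log gene counts from 0.05 to -0.17.

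**Figure D5:**
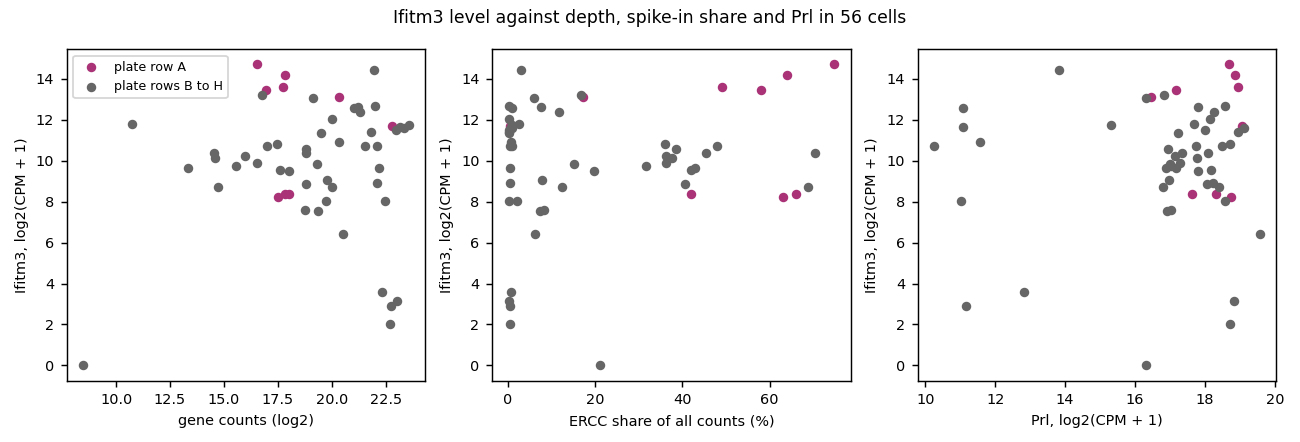
*Ifitm3* (log2(CPM + 1)) against gene counts (log2), spike-in share of all counts (%) and *Prl* (log2(CPM + 1)) in 56 cells, with plate row A in purple. Spearman's correlation was -0.01, 0.05 and 0.03, and 5 of the 9 wells of row A lie at the top of each panel.

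Markers of other cell types were summed per cell beside *Ifitm3*. The 5 endothelial markers (*Cdh5*, *Kdr*, *Plvap*, *Emcn* and *Pecam1*) summed to 0 to 8855 CPM in the 10 cells highest in *Ifitm3* (median 7.63) and to 0 to 320 in the other 46 (median 0.423). At least 4 of them were at 100 CPM or more in H4 and F6 alone. In H4 *Plvap* was 4885, *Kdr* 1681, *Cdh5* 1267 and *Emcn* 1013 CPM, while *Pecam1* was 8.93 and *Prl* 14379. H7 had *Emcn* at 2040 CPM and A2 *Pecam1* at 270. The correlation of *Ifitm3* with the summed endothelial level was 0.27 in all cells and 0.63 in the 25 deep ones, and its part in the results was not tested. Only *Pecam1* met the limits for a gene to be tested, with rho -0.03 over all cells. The other 4 markers were detected in 2 (*Kdr*) to 11 (*Emcn*) cells.

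For the 6 macrophage markers the sum was 0 to 117 CPM in the 10 cells and 0 to 449 in the rest, and for the 8 stromal markers 0 to 38.7 and 0 to 870, with *Col1a1* and *Lum* never at 1 CPM. The 6 stem and folliculostellate markers summed to 2.48 to 14449 CPM in the 10 cells (median 141) and 0 to 8693 in the rest (median 167). Most of it in the highest cells was *S100a6*, with 14433 CPM in A10, 9047 in H7 and 4636 in C7. *Cd9* was at 1874 CPM in H7, and *Sox2*, the stem cell factor gene, was never at 1 CPM. *S100a6* had rho 0.33 with *Ifitm3*, as 1 of 3 tested markers of this list, beside 1.23% of all genes tested at the mark. *Vim* with 0.18 and *Cd9* with 0.07 stayed below it. No cell had 4 or more markers of any of these 3 lists at 100 CPM.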

How the data were processed

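Estimated counts for genes and ERCC spike-ins were deposited as 1 table, with 1 column for each of the 56 cells and no scaling to depth. The submitters' processing notes name STAR 2.5.1b, featureCounts 1.5.0-p1 and mm10, with no role given. Of the values above 0, 33.5% were not whole, so reads were divided among features or places, and members of families or with pseudogene copies can lend and borrow reads. The protocol has no molecular identifiers, and intervals and the floor of 3 counts cover counting error only. The study's methods describe alignment by STAR and counting by featureCounts for bulk libraries. For these single-cell libraries, the strand setting and annotation release are not given in the sources used here.

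CPM was calculated without spike-ins, with gene symbols from GENCODE M21 (46488 of 47069 identifiers matched) and TPM from its exon lengths. Cells were not filtered and doublets were not called in 56 cells. The cells were 1 sample, so levels, Spearman's rho and exact Clopper-Pearson 95% intervals were given with no test. A gene was tested with a mean of 10 CPM and at least 1 CPM in 14 cells, or the same share of a smaller set. Of the listed genes, 1 was not found (*Mb21d1*), and 1 signalling gene is counted but its values are not reported here. Word sharing was counted over 50-base words of M21 transcripts.

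The members and lists were chosen with earlier results of these data known. Named were the members, hormone genes, the 4 genes of highest mean CPM and those with rho of 0.3 or more per list, the 10 most and 5 least like *Ifitm3*, markers at 100 CPM in the 10 highest cells, and the 10 highest and 5 lowest wells; others were picked after their values were seen. Alternatives changed the cells used, the denominator, the detection limit, the depth, the correlation, the gene filter and the unit; leaving out H4 or plate row A, keeping cells of 1000000 counts, and adding the reads of copies to *Ifitm3* were chosen after seeing the data. The code was tested on simulated data. Python 3.11.15, numpy 2.4.6, scipy 1.17.1, pandas 2.3.3 and matplotlib 3.10.9 were used.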

Additional observations from a re-analysis of the deposited data

How the results depend on the processing

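Of 407 values recomputed under 22 other settings, 346 were counted as within the spread of the main value, and 61 moved. That spread was wide, so the 346 are no measure of stability. For the median rho of *Ifitm3* with the 5 induced genes, 0.24 in the main setting, it took in very different values. Both 0.08 in columns 1 to 3 and 7 to 9 and 0.43 without row A were counted as within. A median *Ifitm3* of 7129 per 1000000 spike-in counts was also counted so, against 1316 CPM. Among the 407 values the sign changed in 15, each with a main value nearer 0 than the mark of 0.3. One of them was *Ifit1* (-0.03 in columns 1 to 3 and 7 to 9). The median rho of *Ifitm3* with the 5 induced genes (0.24 in the main setting) was 0.55 in columns 4 to 6 and 10 to 12, and that with all 8 members (0.27) was 0.55 there and 0.55 without row A. The number of pathway genes at the mark was 1 of 52 in the main setting, beside 1.23% of all genes tested. Shares of all genes tested follow in brackets. It was 0 of 50 without H4 (1.10%) and 0 of 49 without the 6 cells of highest gene number (0.816%). It was 2 of 52 without B6 and H10 (1.00%), 2 of 54 in cells of 100000 counts and 1000 genes (1.6%) and 2 of 72 with no detection filter (0.703%). With spike-ins in the denominator it was 3 of 52 (2.36%). With Pearson's r and a pseudocount of 1 or 0.1 it was 6 and 9 of 52 (2.42% and 5.03%). It was 12 of 51 in cells of 1000000 counts (6.29%) and 14 of 53 without row A (6.71%). In columns 4 to 6 and 10 to 12 it was 25 of 51, or 49% against 6.06%.

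Scaling to spike-in counts alone moved all genes together: 62.0% of genes tested then reached rho of 0.3 and 48 of 60 pathway genes did, with a median of 0.48. On that scale the median rho was 0.69 for the 8 members and 0.63 for the 5, rho of *Ifitm3* was 0.55 with gene counts, -0.67 with the spike-in share, and 0.50, 0.58 and 0.46 with *Prl*, *Gh* and *Pomc*. Median *Ifitm3* per 1000000 spike-in counts was 5054 in *Prl*-led, 7431 in *Gh*-led and 333681 in *Pomc*-led cells, so that *Gh*-led cells were above *Prl*-led cells, the reverse of their order in CPM (224 and 1308). The correlation with the spike-in share was 0.31 in columns 1 to 3 and 7 to 9.

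*Ifitm3* was detected in 100% of cells without B6 and in 89.3% at 100 CPM. All 9 members were detected in 51.8% of cells, in 23.9% after thinning to 100000 counts (46 cells, 10 too shallow), in 8.93% at 10 CPM and in 0% at 100 CPM, where the median was 4 members per cell. Leaving out C11 moved no rho of a member by more than 0.01. The cause of these shifts was not tested. Sparse reads limit the low members most. No paired analysis was possible because the cells form 1 group.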
